A study of Mus musculus with 6 samples.

Results

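The group described here holds 10 transcription factor genes. Its AP-1 genes are the FOS genes *Fos*, *Fosb*, *Fosl1* and *Fosl2*, the JUN genes *Jun*, *Junb* and *Jund*, and the related *Atf3* and *Batf3*. The last gene is the immediate-early gene *Egr1*, a zinc-finger factor. The genes of the group were chosen by name from a count table of 40166 mouse genes, and all 10 had a row. Of these, 9 reached the filter on low counts and were tested among 15355 genes, while *Jund* did not. RNA was sequenced in 6 samples from melanomas grown under the skin of C57BL/6 mice injected with YUMM3.3, a BRAF-mutant mouse melanoma cell line. The 3 vehicle tumors came from mice given H2O and the 3 others from mice given rigosertib (RGS) at 300 mg/kg, by oral gavage on 5 days a week, and tumors were collected after 17 days of treatment. RGS is a small molecule that interferes with binding of RAS to its effectors. All tumors came from a single cell line, and RNA was taken from whole tumors, with no sort of tumor from host cells. In such bulk samples, fewer cells of a type and less RNA per cell cannot be told apart. The labels give the strain but neither sex nor age of these animals. They do not say that replicates came from separate animals, and each sample is called a tumor here.

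AP-1 is a dimer of bZIP proteins, usually a FOS protein with a JUN protein, that binds a short DNA element in the control regions of its target genes. Growth factor, RAS and stress signals reach it through the MAP kinases, which switch on immediate-early genes such as *Fos* and *Egr1* within minutes and stabilise several of the proteins. In melanoma cells with an active MAPK pathway, FRA1, the product of *Fosl1*, is known as an abundant FOS protein and is linked to invasive behaviour.

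Promoter sequences are shown for the FOS and JUN genes on which the comparison below turns: *Fosb*, which rose, *Fos*, its closest relative, and *Jun* and *Junb*, the measured JUN genes. Each is the 250 bases directly before the RefSeq transcription start on GRCm38.p6, written 5′ to 3′ on the gene's strand. Capitals mark TGACG, the core of the cAMP response element, TGACATCA, a variant of the AP-1 element, or GCGGGGGCG, an element that EGR proteins bind. The windows lie at chr12:85473640-85473889 (plus strand, *Fos*), chr7:19310046-19310295 (minus strand, *Fosb*), chr4:95052223-95052472 (minus strand, *Jun*) and chr8:84978749-84978998 (minus strand, *Junb*).
Fos: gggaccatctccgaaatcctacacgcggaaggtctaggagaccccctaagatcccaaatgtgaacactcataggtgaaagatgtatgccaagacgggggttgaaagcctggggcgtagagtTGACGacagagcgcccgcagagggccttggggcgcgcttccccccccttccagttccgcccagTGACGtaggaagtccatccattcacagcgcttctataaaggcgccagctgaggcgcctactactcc
Fosb: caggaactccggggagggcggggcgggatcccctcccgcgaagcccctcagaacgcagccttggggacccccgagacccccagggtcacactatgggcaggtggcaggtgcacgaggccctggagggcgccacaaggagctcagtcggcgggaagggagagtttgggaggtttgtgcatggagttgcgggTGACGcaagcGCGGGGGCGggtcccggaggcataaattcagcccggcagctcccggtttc
Jun: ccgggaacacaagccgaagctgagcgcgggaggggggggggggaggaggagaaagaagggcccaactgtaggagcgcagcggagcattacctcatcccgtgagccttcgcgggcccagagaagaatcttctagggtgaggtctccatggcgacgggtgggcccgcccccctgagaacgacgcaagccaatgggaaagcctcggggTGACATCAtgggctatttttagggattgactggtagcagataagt
Junb: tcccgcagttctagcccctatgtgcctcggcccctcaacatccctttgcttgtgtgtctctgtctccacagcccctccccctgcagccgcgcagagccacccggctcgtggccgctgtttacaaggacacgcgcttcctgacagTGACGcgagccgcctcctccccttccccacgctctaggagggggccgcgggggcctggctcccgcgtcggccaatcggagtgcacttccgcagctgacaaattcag

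Of the 10 genes, 8 had an entry in the RefSeq promoter table, and *Fosl1* and *Egr1* did not. The search covered both strands of each window for TGACTCA (the classical AP-1 element), TGACGTCA, TGACATCA, GCGTGGGCG or GCGGGGGCG, TGACG and the CArG box bound by SRF. TGACG also lies within TGACGTCA, and it was added after the sequences had been seen. The *Fos* window held TGACG at 129 to 125 and at 66 to 62 bases before the start, and the *Fosb* window held it at 60 to 56 bases. *Junb* carried it at 106 to 102 bases and *Atf3* on the opposite strand at 7 to 3 bases before the start. TGACG was present in 17.8% of all 32851 windows of the same length. The EGR element GCGGGGGCG stood 50 to 42 bases before the start of *Fosb* and 79 to 71 bases before that of *Fosl2*, and an EGR element of either spelling was in 3.06% of windows. The variant TGACATCA stood 45 to 38 bases before the start of *Jun*, against 2.93% of windows. None of the 8 windows held TGACTCA, TGACGTCA or the CArG box, which were in 4.46%, 1.55% and 1.47% of windows. The RefSeq starts do not always match the counted genes. The *Jund* window ends at chr8:70697738, well before the counted *Jund* begins at 70698949. Windows of *Fosl2*, *Atf3* and *Batf3* lie inside the counted coordinates of these genes. Bases further than 250 from the start were not searched, so an element missing here may lie further upstream. These matches describe letters in a short window and show no binding.

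*Egr1* fell with RGS, *Fosb* rose, and no other gene of the group passed the test. Among the 9 tested genes, 1 was higher and 1 lower at an adjusted p under 0.05 in edgeR's quasi-likelihood test, while 7 did not pass. Over all 15355 tested genes, 16.3% were higher and 16.5% lower, so the group's shares (11.1% each way) were no larger than those of the table as a whole. The median log2 fold change was -0.02 over the 9 genes and -0.05 over all tested genes. Values of the groups did not overlap for 3 of the 9 genes (*Fosb*, *Junb* and *Egr1*), compared with 45.8% of all tested genes.

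**Figure D1:**
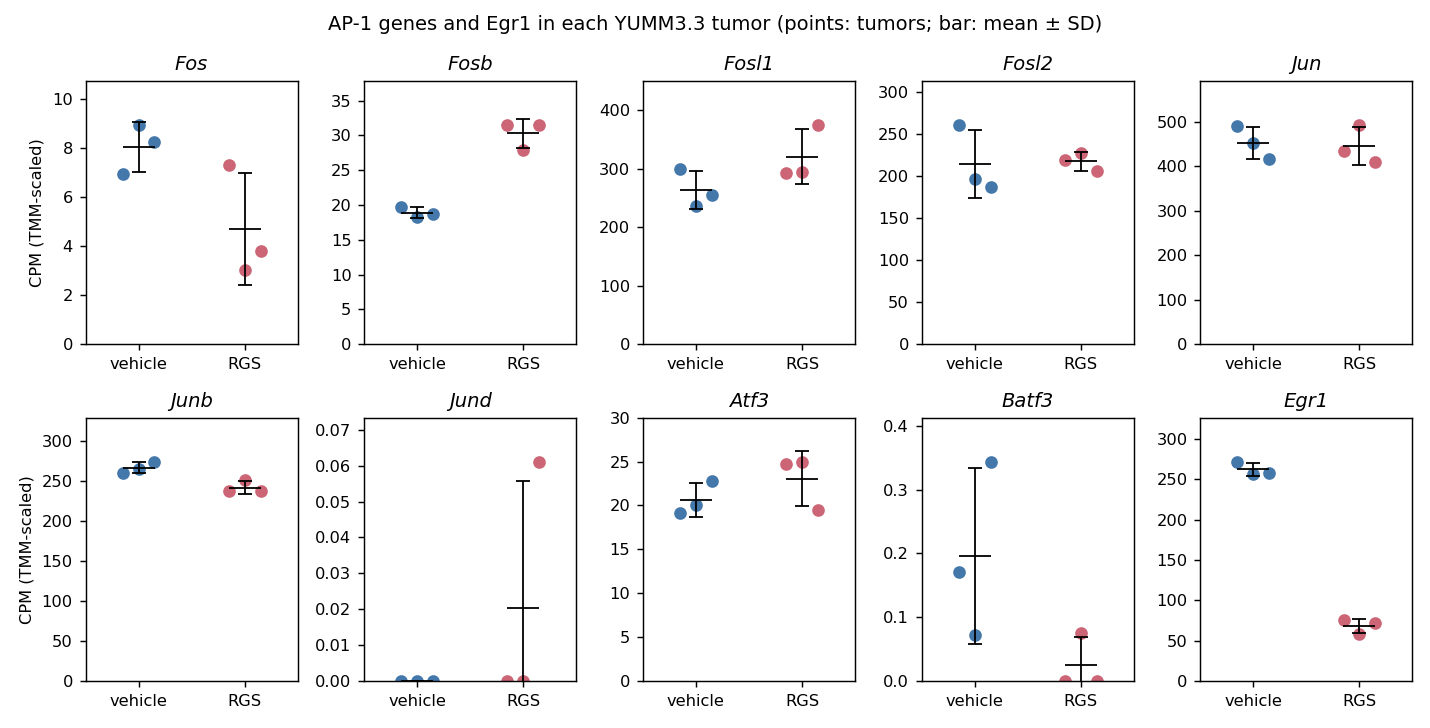
Level of each of the 10 genes in each tumor, in CPM (counts scaled to a common library total, here after TMM scaling), with an axis from 0 for each gene. Points are tumors (3 vehicle, 3 RGS) and bars are the mean ± SD. *Egr1* sat between 257 and 272 CPM with vehicle and between 58.3 and 75.1 CPM with RGS, and *Jund* had 1 count in a single tumor.

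The tumors held between 13837932 and 32555494 counts each, and the 3 vehicle libraries were the deepest. After thinning every library to the smallest total, *Egr1* (-1.95) and *Fosb* (0.69; edgeR adjusted p = 0.0172) still passed and no other gene of the group did. The most sensitive library reached a floor of 3 counts at 0.0856 CPM and the least sensitive at 0.226 CPM. Defining melanocyte markers were absent or nearly so: *Tyr*, *Dct* and *Mlana* had 0 counts in every tumor, *Sox10* had 18 counts in a single RGS tumor and 0 in the others, and *Mitf* averaged 5.45 CPM with vehicle and 7.43 CPM with RGS. Of 11 leukocyte and macrophage markers, 3 were tested: *Laptm5* (2.35) and *Cd53* (1.40) were higher and *Cd68* (0.24) did not pass. *Ptprc*, the pan-leukocyte gene, and *Adgre1* had 0 counts in every tumor, and the other 6 had at most 7 counts in any tumor. Their summed level, nearly all of it from the 3 tested genes, was between 245 and 313 CPM with vehicle and between 1010 and 1100 CPM with RGS. Of 5 tested fibroblast markers, *Pdgfrb* (-2.20), *Col1a2* (-0.73) and *Pdgfra* (-0.70) fell, *Dcn* (3.24) rose and *Col1a1* (0.10) did not pass, and the 7 markers summed to between 375 and 572 CPM with vehicle and between 276 and 306 CPM with RGS. Keratinocyte markers summed to between 0.399 and 1.72 CPM with vehicle and between 7.76 and 25.1 CPM with RGS. Endothelial markers summed to between 2.49 and 4.10 CPM with vehicle and between 6.55 and 13.8 CPM with RGS. Of 4 tested, *Cdh5* was higher (3.47), and *Pecam1* (1.88), *Vwf* (0.33) and *Tek* (-1.88) did not pass. *Pecam1* and *Tek* had no more than 22 counts in any tumor. Dendritic cell markers summed to at most 16.7 CPM in any tumor. Of 3 tested, *Flt3* was higher (4.99), while *Zbtb46* (-1.12; edgeR adjusted p = 0.092) and *Irf8* (1.94; edgeR adjusted p = 0.245) did not pass. T and NK cell markers summed to at most 1.42 CPM, neutrophil markers to at most 0.527 CPM and skeletal muscle markers to at most 10.6 CPM in any tumor. Of 8 T and NK cell markers, 1 was tested, *Trac*, which reached the filter only through RGS and was higher (edgeR adjusted p = 0.00592). It had 0 counts in every vehicle tumor and 30, 16 and 10 counts with RGS, while *Cd3e*, *Cd3d* and *Cd8a* had 0 counts in every tumor. The part of these shifts in the results that follow was not tested.

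*Egr1*, a zinc-finger factor induced by ERK signalling (chr18:34859823-34864984), was at 272, 257 and 258 CPM in the vehicle tumors. In the RGS tumors it was at 75.1, 58.3 and 71.7 CPM. Every RGS tumor was thus far below every vehicle tumor, and the spread within each group was small (SD 8.47 and 8.90 CPM, n = 3 each). The log2 fold change was -1.94 (SE 0.16, 95% interval -2.27 to -1.60; edgeR adjusted p = 4.15e-08), a level 3.83-fold lower with RGS. It passed in all 17 alternative analyses, with values between -2.08 and -1.85. The corepressors that bind EGR1 did not pass, with log2 fold changes of -0.19 for *Nab1* and 0.17 for *Nab2*. Among the 9 tested EGR1 cofactors and targets, 3 were higher (33.3%), 1 lower (11.1%) and 5 did not pass, with a median of 0.03, beside 16.3% and 16.5% of all tested genes. *Pdgfb* (0.81), *Thbs1* (0.63) and *Pdgfa* (0.61) rose and *F3*, the gene of tissue factor, fell by 1.10 on the log2 scale.

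*Fosb*, which encodes a FOS protein with a transactivation domain (chr7:19302696-19310051), was at 19.8, 18.3 and 18.7 CPM with vehicle. It reached 31.5, 27.9 and 31.4 CPM with RGS. The groups did not overlap, and the log2 fold change was 0.68 (SE 0.21, 95% interval 0.24 to 1.11; edgeR adjusted p = 0.0170). The call depended on single tumors: the adjusted p was 0.0766 without vehicle replicate 8, 0.0505 without vehicle replicate 9 and 0.0513 without RGS replicate 12, with log2 fold changes of 0.68, 0.67 and 0.63. Scaling by library size alone gave 0.54 (adjusted p = 0.0614).

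*Fos*, the first-described member of the family (chr12:85473890-85477273), was at 6.93, 8.94 and 8.25 CPM with vehicle. With RGS it was at 7.29, 3.01 and 3.79 CPM. RGS replicate 10 lay within the vehicle range and the other RGS tumors lay below it. The log2 fold change was -0.77 (SE 0.41, 95% interval -1.62 to 0.09; edgeR adjusted p = 0.161). Without RGS replicate 10 it was -1.24 with an adjusted p of 0.0362, so this single tumor decided the call. Raw counts were low, at 243, 251 and 192 with vehicle and 154, 40 and 62 with RGS.

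*Fosl1*, the gene of FRA1 (chr19:5447703-5455945), was at 300, 236 and 255 CPM with vehicle. In the RGS tumors it was at 293, 294 and 375 CPM. The ranges overlapped, since vehicle replicate 7 stood above RGS replicates 10 and 11. The log2 fold change was 0.28 (SE 0.16, 95% interval -0.05 to 0.62; edgeR adjusted p = 0.184). It passed in limma voom with quality weights (0.37, adjusted p = 0.0113) and without vehicle replicate 7 (0.39, adjusted p = 0.0321), and in none of the other 16 alternatives. GENCODE M21 draws *Ccdc85b* over 1163 of the 2033 exon bases of *Fosl1* on the opposite strand, although the coordinates in the deposited table keep the genes apart.

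*Fosl2*, the gene of FRA2 (chr5:32135801-32157842), was at 261, 196 and 187 CPM with vehicle and at 220, 228 and 206 CPM with RGS. All RGS values lay inside the vehicle range. Its log2 fold change was 0.02 (SE 0.16, 95% interval -0.32 to 0.36; edgeR adjusted p = 0.938), and its sign turned in several alternatives.

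**Figure D2:**
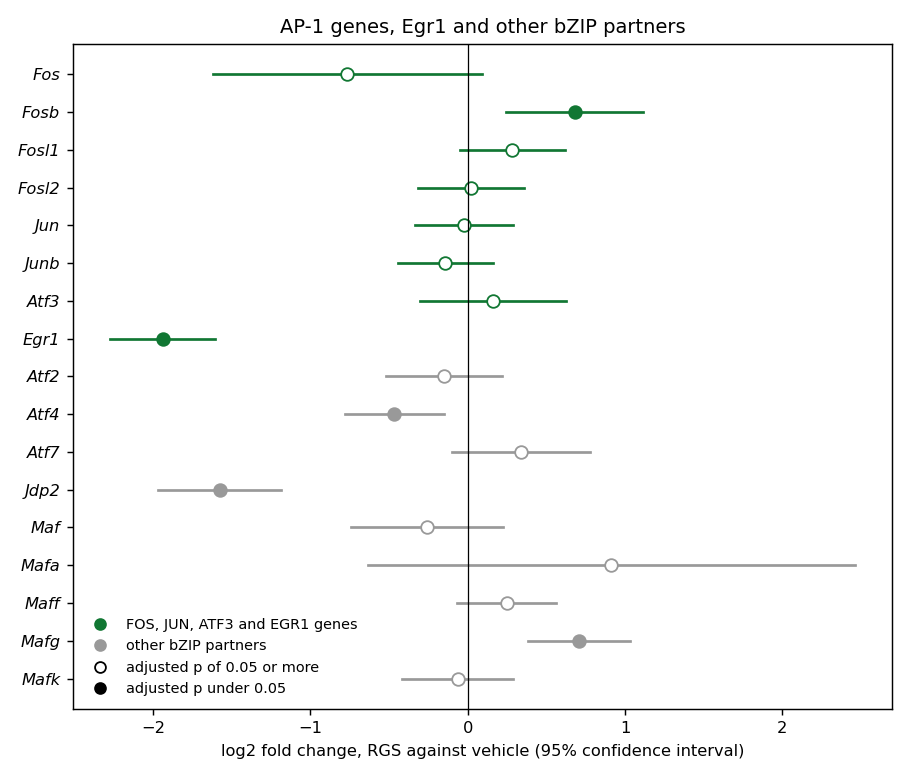
Log2 fold change of RGS against vehicle (horizontal axis), with 95% confidence intervals from edgeR. Green marks 8 genes of the group, and grey marks 9 bZIP genes outside it that can pair with or resemble AP-1 proteins. Filled points passed at an adjusted p under 0.05. *Egr1* (-1.94) and *Jdp2* (-1.58) lie well left of 0, and the intervals of *Fosl2* and *Jun* span it. *Batf3*, with almost no counts, and *Jund*, not tested, are left out.

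*Jun*, the principal partner of the FOS proteins (chr4:95049034-95052222), was at 490, 451 and 417 CPM with vehicle. It was at 434, 493 and 411 CPM with RGS. The groups overlapped almost completely, and the log2 fold change was -0.02 (SE 0.15, 95% interval -0.33 to 0.29; edgeR adjusted p = 0.926). The interval leaves room for a fold between 0.793 and 1.22. The antisense gene *Junos*, which shares 232 of the 3189 exon bases of *Jun*, averaged 70.3 CPM with vehicle and 16.8 CPM with RGS (log2 fold change -2.06; edgeR adjusted p = 5.07e-07). It was looked at after the overlap had been found. Whether counting used strand is not given in the sources used here, so reads in the shared bases could belong to either gene. With the counts of both added, the log2 fold change was -0.18 (edgeR adjusted p = 0.388).

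*Junb*, a JUN protein that is a weaker activator in many settings (chr8:84974484-84978718), was at 261, 265 and 275 CPM with vehicle and at 237, 251 and 237 CPM with RGS. The ranges were separate, but the difference was small. The log2 fold change was -0.14 (SE 0.14, 95% interval -0.44 to 0.16; edgeR adjusted p = 0.483). *Prdx2* shares 173 of the 2301 exon bases of *Junb* on the opposite strand, and with its counts added the value was -0.33 (edgeR adjusted p = 0.156).

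*Jund* (chr8:70698949-70700616), the third JUN gene, had 0 counts in 5 tumors and 1 count in RGS replicate 12. GENCODE M21 places *Gm11175*, an antisense gene that has no row in the table, over 877 of its 1668 exon bases. Its near absence is a fact of the count table, and the level of its RNA in these tumors cannot be read from it.

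*Atf3*, a stress-induced bZIP gene (chr1:191170296-191218039), was at 19.1, 20.1 and 22.8 CPM with vehicle and at 24.8, 25.0 and 19.4 CPM with RGS. RGS replicates 10 and 11 stood above every vehicle tumor and RGS replicate 12 within their range. The log2 fold change was 0.16 (SE 0.22, 95% interval -0.31 to 0.63; edgeR adjusted p = 0.622). *Batf3*, needed for a subset of dendritic cells (chr1:191097847-191108945), had 6, 2 and 8 counts with vehicle and 0, 1 and 0 counts with RGS. These counts are at or near the floor of 3, and a difference was not detectable at this depth (edgeR adjusted p = 0.273).

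Per base of gene length, as TPM (length-corrected counts scaled to a fixed total), the vehicle tumors ranked *Fosl1* (512 ± 114 TPM, SD, n = 3), *Jun* (470 ± 89.1) and *Junb* (381 ± 32.2) highest. *Egr1* followed at 193 ± 26.8 TPM, then *Fosl2* at 74.0 ± 22, *Atf3* at 31.3 ± 1.03, *Fos* at 11.2 ± 1.10 and *Fosb* between 8.81 and 11.6 TPM. The ranges of *Fosl1* and *Jun*, of *Jun* and *Junb*, and of *Fos* and *Fosb* overlapped. Within each vehicle tumor, *Jun* still stood above *Junb* (563 against 415, 463 against 377 and 385 against 351 TPM). The order of *Fosl1* and *Jun*, and that of *Fos* and *Fosb*, changed between vehicle tumors. In the RGS tumors *Fosl1* (539 ± 43.8 TPM), *Jun* (405 ± 54.5) and *Junb* (304 ± 25.0) kept the first places. There *Egr1* (44.1 ± 7.33 TPM) stood below *Fosl2* (65.1 ± 7.43), and *Fos* (5.88 ± 3.26) below *Fosb* (14.0 ± 1.47), with no overlap between these neighbours.

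Within the FOS family, *Fosl1* made up 84.1%, 83.7% and 85.2% of length-corrected transcripts with vehicle and 84.8%, 85.5% and 88.7% with RGS. The difference of 1.97 percentage points did not pass an exact two-sided permutation test over 6 tumors (p = 0.2, where the smallest possible p is 0.1). It was 0.769 points without RGS replicate 12 and 3.49 points with counts not divided by length. The size of the *Fosl1* share rests on the deposited lengths, 1707 bases for *Fosl1* and 9680 for *Fosl2*. Not divided by length, *Fosl1* and *Fosl2* averaged 264 and 215 CPM with vehicle and 321 and 218 CPM with RGS. *Fosb* took 1.52%, 1.77% and 1.71% with vehicle and 2.49%, 2.22% and 2.03% with RGS, without overlap. *Fos* took 1.41%, 2.30% and 2.0% with vehicle and 1.53%, 0.635% and 0.651% with RGS. The log2 ratio of *Fosl1* to *Fos* averaged 5.50 with vehicle and 6.65 with RGS (exact permutation p = 0.2). Within the JUN family, *Jun* held 57.6%, 55.1% and 52.3% with vehicle and 56.9%, 58.6% and 55.5% with RGS (exact permutation p = 0.4), and *Junb* held nearly all of the rest. The difference of 2.03 points was 3.31 without vehicle replicate 7, 0.690 without vehicle replicate 9 and 1.23 without RGS replicate 11.

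**Figure D3:**
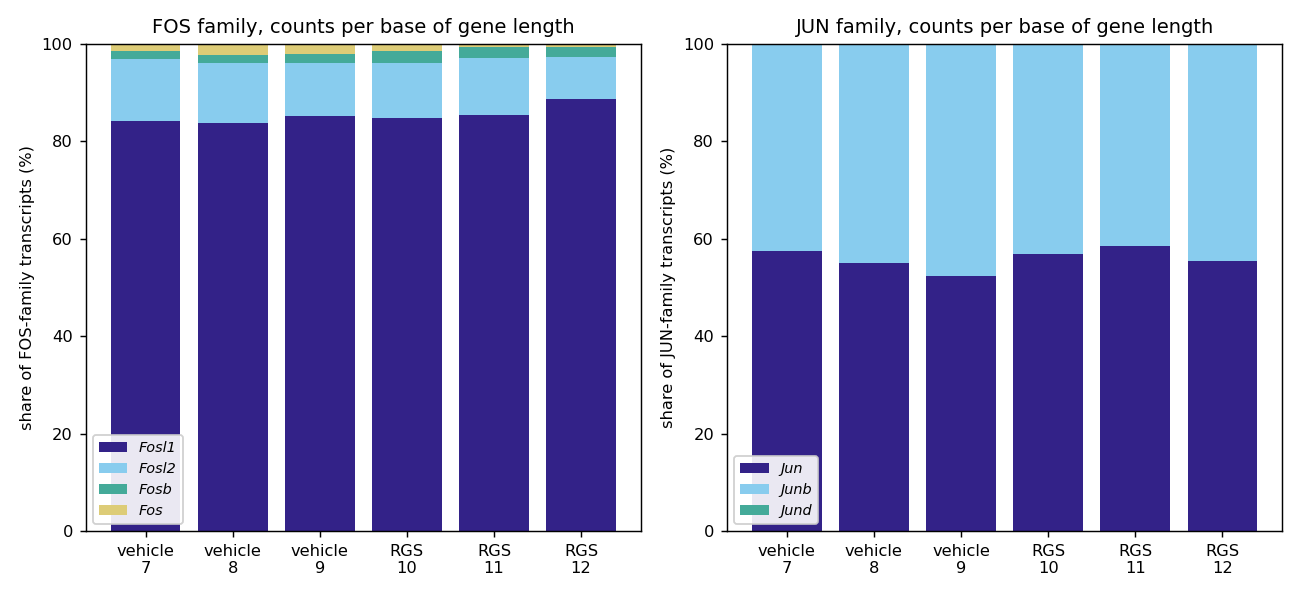
Share of each gene in the summed FOS-family (left) and JUN-family (right) transcripts of each tumor, in percent, after dividing counts by gene length. Bars are single tumors. *Fosl1* fills between 83.7% and 88.7% of every FOS bar, and *Jun* between 52.3% and 58.6% of every JUN bar.

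Of 13 other bZIP genes that pair with or resemble AP-1 proteins, 9 were tested, and 1 was higher (11.1%), 2 were lower (22.2%) and 6 did not pass. These shares are near those of all tested genes (16.3% higher, 16.5% lower). *Jdp2*, a repressor that dimerises with JUN proteins, was at 53.4, 54.0 and 57.5 CPM with vehicle and at 17.9, 18.4 and 19.0 CPM with RGS (log2 fold change -1.58, SE 0.19; edgeR adjusted p = 3.68e-06). *Atf4*, an effector of the integrated stress response, fell by 0.47 on the log2 scale. *Mafg*, a small MAF protein, rose by 0.71.

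The other immediate-early genes split evenly. Of 31 tested, 9 were higher, 10 lower and 12 did not pass, with a median log2 fold change of 0.16. The shares of 29.0% higher and 32.3% lower compare with 16.3% and 16.5% of all tested genes. *Ier3*, a survival-associated early gene, was at 238, 219 and 215 CPM with vehicle and at 1113, 1391 and 1387 CPM with RGS (log2 fold change 2.53, SE 0.16; edgeR adjusted p = 1.25e-09). *Csrnp1* (1.31), *Phlda1* (1.22) and *Arc* (1.44) were also higher, though *Arc* overlapped between groups. *Gadd45b*, a stress-response gene, was at 217, 245 and 267 CPM with vehicle and at 41.1, 67.2 and 65.0 CPM with RGS (log2 fold change -2.08, SE 0.19; edgeR adjusted p = 1.63e-07). The Krüppel-like genes *Klf10* (-1.54) and *Klf6* (-1.34) and the matricellular gene *Cyr61* (-1.23) fell as well. *Egr2* was not analysed here.

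Of 24 tested kinases that act upstream of AP-1, 9 were higher (37.5%), 3 lower (12.5%) and 12 did not pass, with a median of 0.35. Over all tested genes the shares were 16.3% and 16.5% and the median -0.05. *Rps6ka1* (1.06), *Map2k2*, the gene of MEK2 (from between 77.7 and 118 CPM to between 176 and 218 CPM), *Map2k7*, a JNK kinase (0.86), and *Rps6ka4* (0.78) rose, and *Mapk12* (-1.32), *Mapk13* (-0.90) and *Rps6ka5* (-0.84) fell. Of 12 factors that act on FOS and JUN promoters, 3 were higher (25.0%), 1 lower (8.33%) and 8 did not pass, against 16.3% and 16.5% over all tested genes. *Mkl1*, a coactivator of SRF (from a mean of 47.5 to 107.9 CPM), *Crem* (1.04) and *Elk3* (0.55) rose and *Mef2c* (-1.96) fell, while *Srf* itself did not pass (0.09; edgeR adjusted p = 0.800).

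Of 37 tested genes known as AP-1 targets, 22 were higher (59.5%), 4 lower (10.8%) and 11 did not pass, with a median log2 fold change of 0.59. Over all tested genes, 16.3% were higher and 16.5% lower. Values did not overlap for 30 of the targets, against 45.8% of all tested genes. The list held 9 genes already known to be higher in these tumors when it was written, so it is not independent evidence of a direction. Without these 9, 13 of 28 were higher (46.4%), 4 lower (14.3%) and 11 did not pass, with a median of 0.41. *Mmp1a*, *Mmp1b*, *Mmp12*, *Ivl* and *Il1a* reached the filter on low counts only through their RGS counts. They could thus pass only as higher, and they count among the higher and the non-overlapping targets. Of these genes, *Il1a* alone is among the 28. *Mmp10*, a stromelysin, was at 4.51, 6.91 and 6.58 CPM with vehicle and at 663, 716 and 683 CPM with RGS (log2 fold change 6.85, SE 0.21; edgeR adjusted p = 6.67e-14). *Csf2*, the gene of GM-CSF, was at 1.83, 2.56 and 5.20 CPM with vehicle and at 82.8, 80.4 and 110 CPM with RGS (log2 fold change 4.86, SE 0.31; edgeR adjusted p = 1.54e-09). *Ivl*, an epidermal envelope gene that is also a keratinocyte marker, had 0 counts in every vehicle tumor and was at 5.87, 11.4 and 19.6 CPM with RGS. The RGS mean of 12.3 CPM was 115-fold the vehicle floor of 0.107 CPM, taken as 3 counts in each vehicle library. This fold leaves out the spread of the RGS tumors. Of the other keratinocyte markers, *Krt16* rose from 0 counts in every vehicle tumor to 21, 8 and 37 counts with RGS (edgeR adjusted p = 0.00473), *Lor* had 30 counts in RGS replicate 12, *Krt10* did not pass, and *Krt5* and *Krt14* had at most 2 counts in any tumor. *Mmp1a* had 1 count over the vehicle tumors and 133 counts over the RGS tumors. Of the lower targets, *Met* (-1.03), *Ccnd1*, the gene of cyclin D1 (-0.90), and *Axl* (-0.72) did not overlap between groups, and *Ccl2* (-0.50) did. The part of the marker shifts in these changes was not tested.

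**Figure D4:**
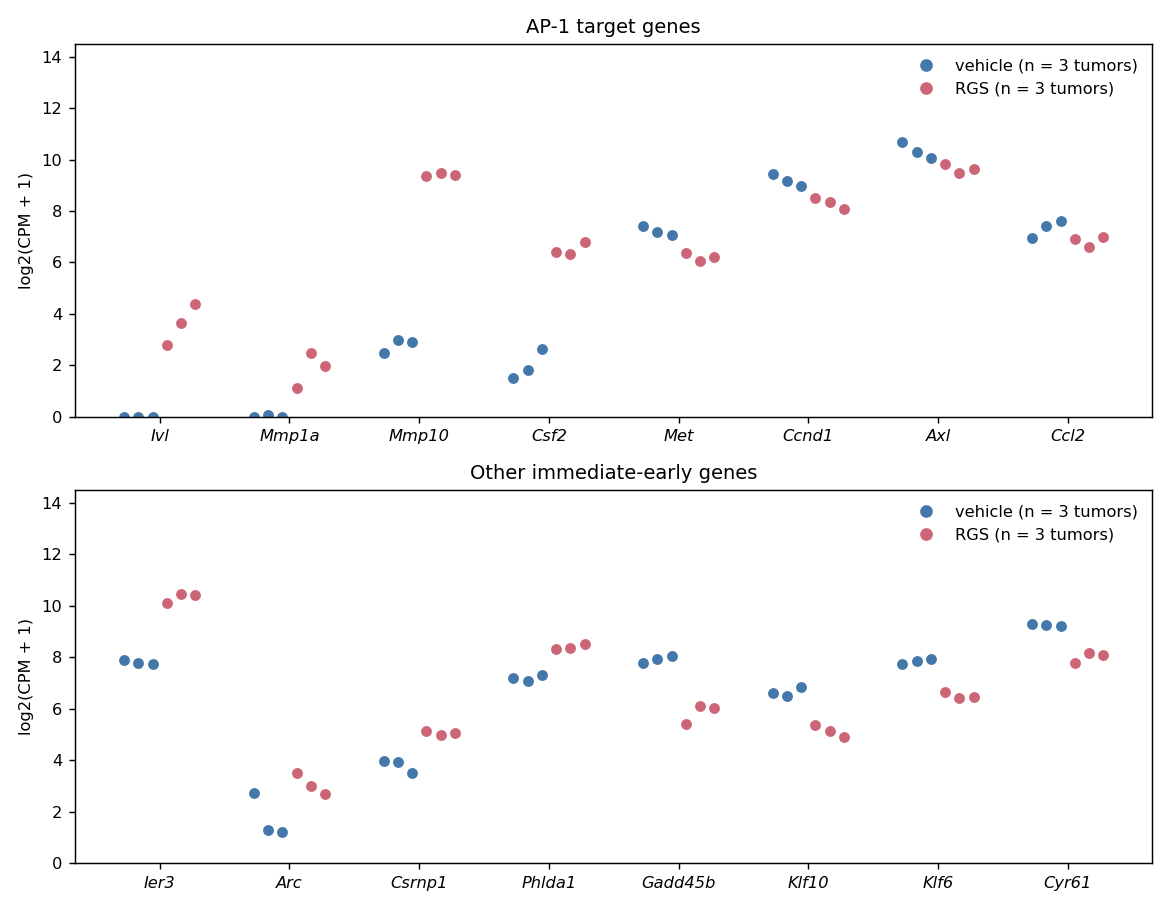
Level of named AP-1 target genes (top) and other immediate-early genes (bottom) in each tumor, as log2(CPM + 1). Points are single tumors, 3 per group. *Mmp10* rises from between 4.51 and 6.91 CPM to between 663 and 716 CPM, and *Gadd45b* falls from between 217 and 267 CPM to between 41.1 and 67.2 CPM.

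Heat shock genes, which respond to handling as well as to drugs, were higher in 5 of 11 (45.5%) and lower in 1 (9.09%), and 5 did not pass, beside 16.3% and 16.5% of all tested genes. *Hspb1* (2.04), *Bag3* (1.66), *Hsph1* (1.43) and *Dnaja1* (0.96) rose and *Hspe1* fell by 1.37 on the log2 scale. The inducible genes *Hspa1a* (0.34; edgeR adjusted p = 0.534) and *Hspa1b* (0.34; edgeR adjusted p = 0.280) did not pass. The summed level of the list was between 5670 and 6600 CPM with vehicle and between 6430 and 7600 CPM with RGS.

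**Figure D5:**
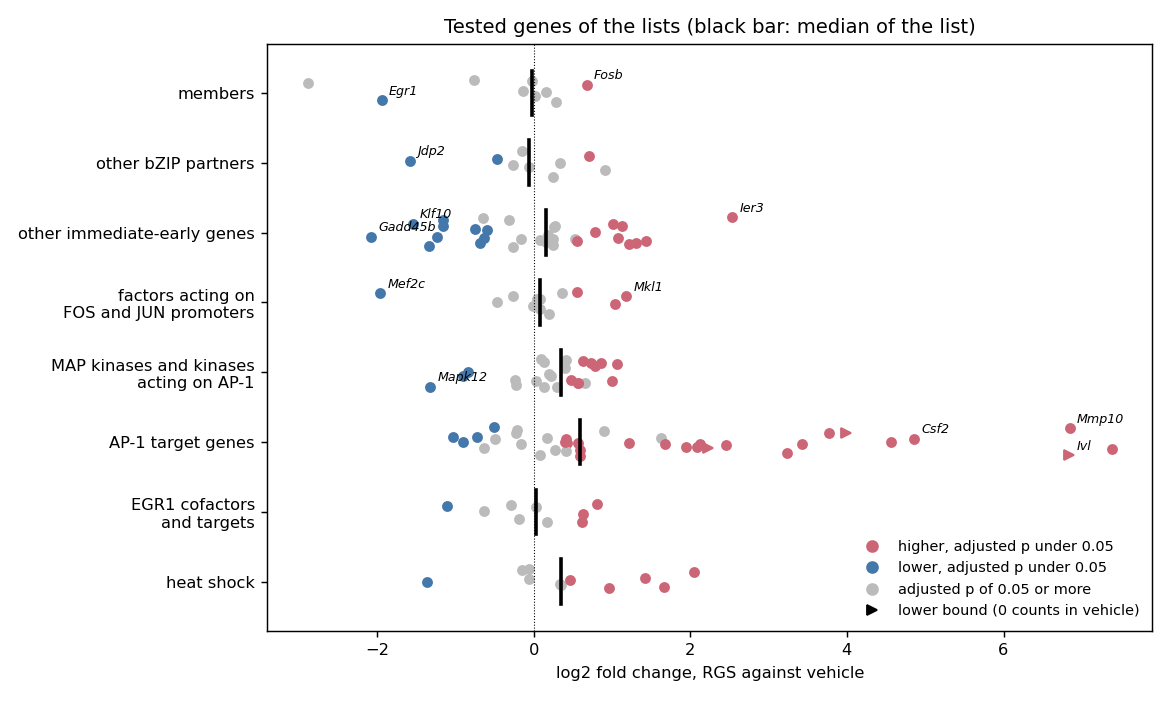
Log2 fold change of RGS against vehicle (horizontal axis) for every tested gene of the group and of 7 lists (rows), with the median of each as a black bar. Red and blue points passed as higher and lower. Triangles, labelled as lower bounds, mark genes with 0 counts in all vehicle tumors. They set the RGS mean against 3 counts in each vehicle library and leave out the spread of the RGS tumors. *Batf3*, *Il1a* and *Mmp1a*, with at most 3 counts per tumor in 1 group, are drawn at fitted values that depend on the prior count. Of the rows shown, the AP-1 targets have the highest median (0.59), and the group itself is centred near 0. The target list held 9 genes already known to be higher when it was written, and without them its median is 0.41. The kinase row has a median of 0.35.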

How the data were processed

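RNA from 6 tumor samples (3 vehicle, 3 RGS) was sequenced as paired-end reads of 150 bases. The deposited table holds whole-number counts of reads for each gene and tumor, not normalized by the authors, beside gene length and position. The submitters' processing notes name cutadapt 1.18, FastQC 0.11.7, STAR 2.7.1a, featureCounts 1.6.4 and mm10. The strand setting and the handling of overlapping genes are not given in the sources used here. Of the identifiers, 38971 are in GENCODE M21, all with the same start and end there (GRCm38). Columns were matched to samples by name, and 0 columns were left unused.

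From the deposited counts, genes whose median reached 5 counts in either group were tested in R 4.3.3 with edgeR 4.0.16 (TMM factors, quasi-likelihood F test, no covariates), adjusted by Benjamini-Hochberg over 15355 genes at a threshold of 0.05. The SE is the log2 fold change over the square root of F. CPM are TMM-scaled, TPM use the deposited length, and errors are SDs over 3 tumors. The labels do not say that replicates came from separate animals, so p-values measure only the spread between these samples, which may be technical. Library totals were 13837932 to 32555494 counts, and the floor of 3 counts covers counting error only. Shares were compared with an exact two-sided permutation test. Scripts were tested on simulated data.

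The members and gene lists were chosen with earlier results of these data known, and the lists were written from general knowledge. All 10 members are named. Of each list, up to 4 genes each way with the largest change among those past the threshold and with a mean of at least 1 CPM are named, and up to 2 each way of each marker list, with fixed defining markers. *Junos*, *Ccdc85b*, *Prdx2*, *Adgre1*, *Cd68*, *Col1a1*, *Krt10*, *Krt16*, *Lor*, *Gm11175*, *Il1a*, *Tyr*, *Dct*, *Mlana*, *Nab1*, *Nab2*, *Srf*, *Zbtb46*, *Irf8*, *Vwf* and *Tek* were named after their values were seen. So were *Mmp1b*, *Mmp12*, *Trac*, *Cd3e*, *Cd3d* and *Cd8a*. Alternatives were DESeq2 1.42.0, limma 3.58.1 voom with quality weights, RLE and upper-quartile factors, library size only, other filters, robust dispersions, thinned counts, mitochondrial genes left out, each tumor left out and stricter thresholds. Another 2 were chosen after seeing the data: ribosomal protein genes also left out, and counts of overlapping genes added together.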

Additional observations from a re-analysis of the deposited data

How the results depend on the processing

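Of 250 repeated values, 225 kept their direction and call or, for counts and shares, stayed close to the reported value. The number of AP-1 group genes higher with RGS was 1, but 2 in limma voom with quality weights, 0 with library size only, 0 at an adjusted p under 0.01 and 0 where a log2 change of 1 or more in size was also required. It ranged from 0 to 2 when each tumor was left out, and the number lower from 1 to 2. AP-1 targets past the threshold numbered 26, and 17 with that size requirement. Signs turned for *Jun* in limma voom (0.0075) and for *Fosl2* with upper-quartile factors (-0.014) and library size only (-0.12). Leaving out tumors moved *Jun* between -0.11 and 0.036 and *Fosl2* between -0.067 and 0.18. The cause was not tested. Scaling by library size alone moved the median of all genes by -0.14 on the log2 scale, and 37.2% of calls were then higher, against 49.7%. No paired analysis was possible because the groups share no replicate numbers. Depth limits *Batf3*, which lies near 3 counts.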
